A study of Mus musculus with 8 samples.

Results

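The CpG-poorest 10% of the regions on an Agilent mouse CpG island array comprised 1348 of 13444 regions. A region was a run of at least 3 probes on chromosomes 1 to 19 whose starts lay no more than 500 bp apart, and the 1348 regions were those with the fewest CG dinucleotides per probe base, up to 3.31 CG per 100 bases. They held 5956 of the 83154 probes in regions, and 1249 of them carried a gene symbol in the array design. DNA methylation was measured by methylated DNA immunoprecipitation (mDIP), in which an antibody against 5-methylcytidine enriches methylated fragments of sonicated, denatured DNA, and each of the 8 arrays compared antibody-bound DNA (Cy5) with input DNA of the same sample (Cy3). The samples were 4 samples of mouse embryonic stem (ES) cells, of the genotypes wild type, aid-/-, mbd4-/- and Gadd45a knock down, together with spleen and liver from C57BL6/J mice of 6 months that were aid-/- or mbd4-/-. The labels give no strain for the ES cells and no number of clones or animals, and each group was 1 array. Tissue DNA of the 2 genotypes came from different laboratories, per the labels, and wild-type tissue was not analysed here. No RNA was measured, so markers could not be used to check the labelled cell types.

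CpG islands are stretches of the genome in which the CG dinucleotide has been kept, and most of them, above all those at gene starts, carry little methylation. Outside islands most CGs are methylated, and a methylated C is prone to mutate to T, so that long-methylated sequence loses CGs over evolutionary time. AID deaminates cytosine, MBD4 is a glycosylase that removes thymine or uracil from mismatches at CG sites, and Gadd45a is a stress response protein; all have been linked to active removal of DNA methylation. The antibody binds single methylated cytosines, so a fragment with few CGs offers few sites to it even where every CG is methylated.

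The regions differ from a textbook island in sequence, as probes from both ends of the measured range show. The first set are the probe nearest to the centre of 3 regions near the top of the range on all 8 arrays, the second set of 4 regions at the starts of germ-line genes, the third of 4 regions that differed between ES cells and tissues, the fourth of 3 regions that differed among the ES arrays, and the last of 4 regions that were highest in spleen, low everywhere or from a histone gene. CG dinucleotides are in capitals. Positions are in mouse build mm9, as in the deposited files, which do not give the strand of a probe relative to the genome.
Trpc7 (chr13:56989171-56989218): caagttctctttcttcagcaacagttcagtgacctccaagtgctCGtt
Ptpn21 (chr12:99927465-99927509): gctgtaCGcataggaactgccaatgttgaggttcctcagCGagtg
Fat1 (chr8:46109087-46109134): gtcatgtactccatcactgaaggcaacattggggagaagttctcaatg
Slc25a31 (chr3:40512905-40512952): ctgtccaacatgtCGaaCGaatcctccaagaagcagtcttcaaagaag
Tdrd12 (chr7:36322564-36322608): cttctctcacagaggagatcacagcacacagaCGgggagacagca
Brdt (chr5:107760143-107760187): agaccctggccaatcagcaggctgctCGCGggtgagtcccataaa
2410076I21Rik (chr9:58589258-58589303): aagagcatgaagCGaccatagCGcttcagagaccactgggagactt
Rbfox3 (chr11:118768747-118768791): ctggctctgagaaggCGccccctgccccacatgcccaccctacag
D130017N08Rik (chr5:144519058-144519102): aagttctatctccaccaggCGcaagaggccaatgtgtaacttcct
Slc7a14 (chr3:31108081-31108126): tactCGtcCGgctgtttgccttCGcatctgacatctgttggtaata
Stx1a (chr5:135517901-135517945): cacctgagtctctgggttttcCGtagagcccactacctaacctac
Samd12 (chr15:53734115-53734159): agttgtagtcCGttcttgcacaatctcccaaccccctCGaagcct
Bcl11a (chr11:24064543-24064587): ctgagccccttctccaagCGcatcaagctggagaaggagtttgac
Map3k1 (chr13:112539067-112539121): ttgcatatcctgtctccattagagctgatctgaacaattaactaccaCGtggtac
Runx1 (chr16:92695809-92695853): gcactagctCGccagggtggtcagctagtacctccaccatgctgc
Dbp (chr7:52960925-52960975): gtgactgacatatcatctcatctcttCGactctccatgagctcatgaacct
Osbp (chr19:12039989-12040042): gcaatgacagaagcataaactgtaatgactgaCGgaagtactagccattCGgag
Hist1h2ae (chr13:23663069-23663125): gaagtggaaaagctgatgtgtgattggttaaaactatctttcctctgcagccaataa

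A CpG-poor region had a median of 5 CGs over all its probes, against 13 in all regions and 21 in the CpG-richest 10%. The Fat1 and Hist1h2ae probes above hold no CG at all, as did 26.4% of the probes in CpG-poor regions against 10.2% of all region probes. The median G+C content was 51.4%, against 55.8% in all regions and 60.3% in the richest 10%. The ratio of observed to expected CG was 0.41 at the median, against 0.686 and 0.922, and 887 of the 1348 regions were also in the lowest 10% by that ratio; both follow from how the regions were chosen. The regions were short, with a median of 4 probes and 458 bp against 644 bp in all regions, and 451 of them (33.5%) had only 3 probes, against 15.9% of all regions. A level therefore rested on fewer probes, and on probes with fewer CGs, than elsewhere on the array. CGs of the fragments outside the probes were not counted here.

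A level here is the mean over the probes of a region of log2(bound/input) after subtracting the median of the array. The 98th percentile of region levels, called the plateau below, ran from 2.22 in aid-/- liver to 4.32 in aid-/- ES cells, so raw levels are not on 1 scale across arrays. A region was called strongly bound where its level reached at least 50% of the plateau of its array. Of the bound-channel probes in CpG-poor regions, 63.3% (aid-/- ES) to 90.3% (mbd4-/- liver) were well above background, against 65.3% and 92.4% of all region probes on those arrays. The aid-/- arrays and wild-type ES were scanned on 1 day, the tissue mbd4-/- arrays on another, and the mbd4-/- ES and knockdown arrays on a day each. A difference between aid-/- and mbd4-/- therefore cannot be told apart from one of scan day. The same holds for mbd4-/- or knockdown ES cells against wild type, whose arrays also differed in the version of the Agilent Feature Extraction software.

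Of 10 sets of 1122 to 1566 regions in order of CG content, the CpG-poorest had the largest strongly bound share on each of the 8 arrays. In wild-type ES cells 237 of the 1348 regions (17.6%) were strongly bound, against 6.50% of all regions and 0.967% of the richest 10%. The share was 21.4% in aid-/- ES cells, 21.4% in mbd4-/- ES cells and 16.6% in the knockdown, against 8.29%, 8.76% and 6.73% of all regions. In liver it was 21.6% (aid-/-) and 20.6% (mbd4-/-), and in spleen 22.9% and 20.8%, against 8.96% to 10.2% of all regions. The median level of CpG-poor regions was 0.12 in wild-type ES cells against -0.15 in all regions, 0.48 against -0.17 in aid-/- ES cells and -0.06 against -0.13 in mbd4-/- liver. These are shares of regions on single arrays, without replicates, and no test was made of them.

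**Figure D1:**
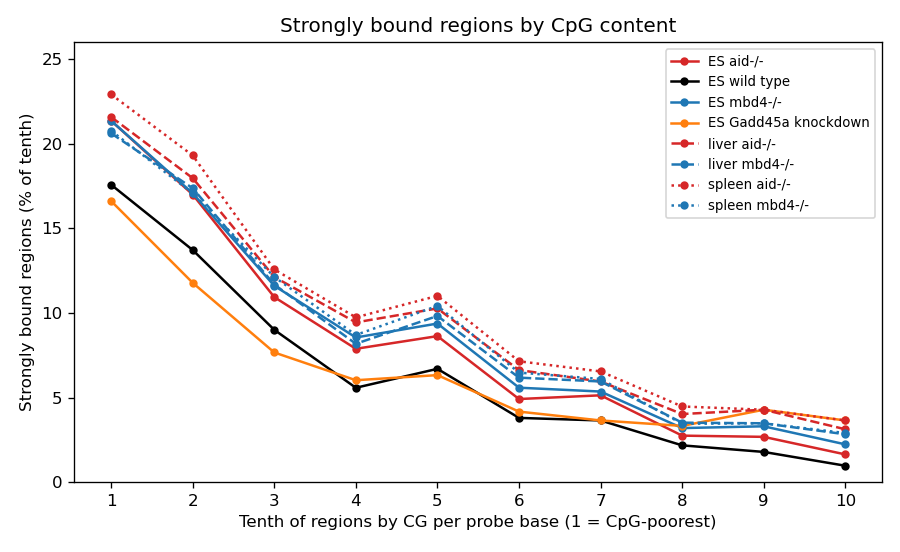
Share of strongly bound regions (y axis, %) in 10 sets (1122 to 1566 regions each) of the 13444 regions by CG per probe base (x axis, set 1 the CpG-poorest), with 1 line per array and no error bars, since each group is 1 array. The lines start between 16.6% and 22.9% in set 1 and end between 0.967% and 3.64% in set 10.

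The values on either side of the limit are given as a description. The 60 regions just inside the limit had 3.28 to 3.31 CG per 100 bases, and 6 of them were strongly bound in wild-type ES cells, 7 in the knockdown and 11 in aid-/- ES cells. Among the 60 just outside, with 3.31 to 3.33, the numbers were 9, 7 and 11. Median levels were higher just outside than just inside on the wild-type, mbd4-/- and knockdown ES arrays, at 0.28 against -0.16, 0.54 against -0.28 and 0.45 against -0.38, and were 0.25 against 0.06 in aid-/- ES cells. Among the CpG-poor regions themselves, cut into 4 sets of 337 by CG content, the set with the fewest CGs had the largest strongly bound share, 21.7% in wild-type ES cells and 24.9% in mbd4-/- spleen, and the set with the most had 14.5% and 16.6%. The order was not steady in between, with 15.7% and 18.1% in the set up to 2.78 CG per 100 bases and 18.4% and 23.4% in that up to 3.00.

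G+C content, which affects hybridisation, was looked at as a separate property. Among regions under 45% G+C, strongly bound shares in wild-type ES cells were alike for the 96 CpG-poor regions (30.2%) and the 94 others (29.8%). At higher G+C content they parted: 17.9% against 11.1% between 45% and 50%, 16.1% against 6.59% between 50% and 55%, and 15.7% against 4.24% between 55% and 60%. The excess over other regions therefore appeared at the G+C content that most CpG-poor regions had, 1235 of 1348 lying between 45% and 60%. Among CpG-poor regions and among all regions, those of 500 bp or more had the smallest strongly bound share. In wild-type ES cells the shares were 21.6% of 102 CpG-poor regions against 16.8% of 716 regions under 300 bp, 24.5% of 711 against 14.1% of 3629 from 300 to 500 bp and 7.66% of 535 against 2.66% of 9099 of 500 bp or more.

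Strong binding was grouped by the arrays that showed it. No array showed strong binding at 932 CpG-poor regions (69.1%), against 85.4% of all regions, while 147 (10.9%) were strongly bound on all 8 arrays, against 3.79% of all regions. A further 50 were strongly bound on all arrays but the knockdown, 39 on the knockdown array alone, and 21 on all but the wild-type and knockdown ES arrays. Strong binding on all ES arrays and no tissue array was found at 5 regions (0.371%, against 0.0893% of all regions) and the reverse at 14 (1.04% against 0.722%). It was found on the liver arrays only at 8 regions (0.593% against 0.417%) and on the spleen arrays only at 9 (0.668% against 0.476%).

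The 6 regions with a gene symbol and the highest mean rank over the 8 arrays were picked out. High levels on most arrays therefore follow from the choice. Trpc7, which encodes a cation channel, had levels of 5.69 in aid-/- ES cells, 4.46 in wild type, 5.19 in mbd4-/- and 4.61 in the knockdown, then 2.65 (aid-/-) and 4.90 (mbd4-/-) in liver and 2.62 (aid-/-) and 4.71 (mbd4-/-) in spleen. Ptpn21, a tyrosine phosphatase, had levels of 5.23, 4.55, 5.11 and 4.68 in the same order in ES cells, 2.55 and 4.74 in liver and 2.58 and 4.27 in spleen. Fat1, an atypical cadherin, had levels of 5.34, 4.59, 5.74 and 5.51 in ES cells, 2.55 and 4.77 in liver and 2.35 and 4.10 in spleen over its region of 7 probes. In all 3 regions both aid-/- tissue arrays were lowest and every value lay above the plateau of its array. The other regions with the highest mean ranks were at Cmklr1 (the chemerin receptor), Cdh5 (the cadherin of vascular endothelium) and H1fnt (a linker histone of spermatids), each strongly bound on all 8 arrays.

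The 6 regions with a gene symbol and the lowest mean rank were picked in the same way. Their low levels on most arrays follow from the choice too. Dbp, a clock-controlled transcription factor, had levels of -1.21, -1.88, -2.16 and -1.99 in aid-/-, wild-type, mbd4-/- and knockdown ES cells, -0.92 (aid-/-) and -1.71 (mbd4-/-) in liver and -0.71 and -1.10 in spleen. Osbp, an oxysterol-binding protein, ranged from -1.87 (mbd4-/- ES) to -0.66 (aid-/- liver). Fbxl12, Ift27 (of intraflagellar transport), Hist3h2a and Hist1h3g completed the 6 lowest. For Dbp the aid-/- tissue arrays were the least negative, and these 2 arrays also had the lowest plateaus.

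Regions that overlap a promoter were seldom strongly bound. A region was counted as promoter-overlapping where a probe sequence was found in the window from 250 bases before to 50 after a RefSeq gene start (GRCm38.p6, 32851 windows), a criterion chosen after the levels had been seen. It held for 509 CpG-poor regions (37.8%), against 53.4% of all regions and 58.7% of the richest 10%. In wild-type ES cells 9 of these 509 (1.77%) were strongly bound, against 228 of the 839 other CpG-poor regions (27.2%). On the other ES arrays the shares were 2.36% against 32.9% (aid-/-), 2.36% against 32.9% (mbd4-/-) and 3.34% against 24.7% (knockdown). In liver and spleen they were 1.57% to 2.95% against 32.1% to 35.0%. Of the 147 regions strongly bound on all 8 arrays, 143 were among the 839 without a promoter match, and 469 of the 509 promoter regions were strongly bound on no array.

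**Figure D2:**
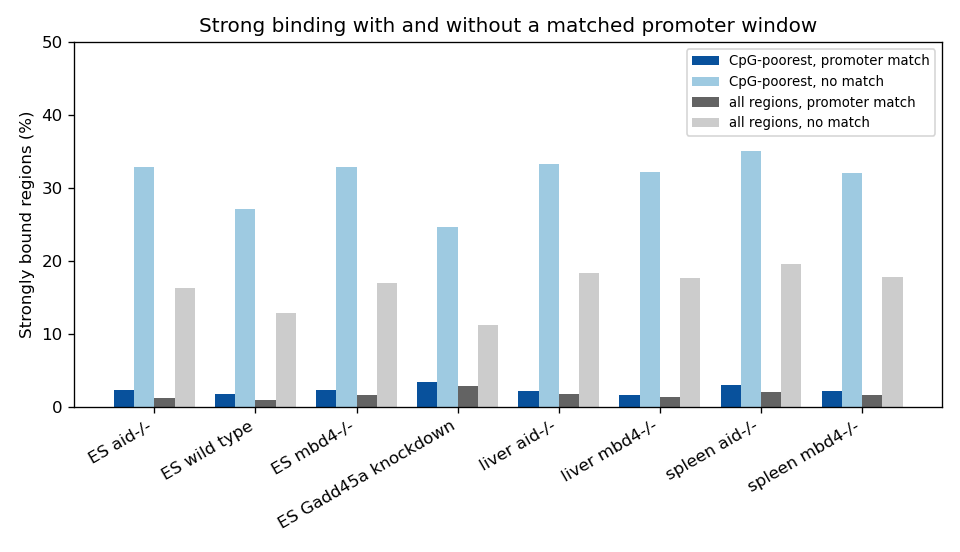
Share of strongly bound regions (y axis, %) on each array (x axis) for CpG-poor regions and all regions, with and without a matched promoter window, as bars from 0 without error bars, since each group is 1 array. Promoter regions stay at or below 3.34% in both sets, and CpG-poor regions without a promoter match reach 24.7% to 35.0%.

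The promoter and other CpG-poor regions were alike in median G+C content (51.6% and 51.4%) and in CG per 100 bases (2.81 and 2.77), and differed in median length (538 and 426 bp). The chance of a match rose with the number of probes, from 30.4% of regions with 3 probes to 65.2% of those with over 8. Within regions of 3 probes the strongly bound shares in wild-type ES cells were 2.19% with a match and 24.8% without, and within regions of 4 to 5 probes 2.07% and 31.9%. The gap was also present in each G+C class, such as 2.67% against 27.7% between 45% and 50%. In the array as a whole 0.906% of 7178 promoter regions and 12.9% of 6266 others were strongly bound in wild-type ES cells, so the low share at promoters was not particular to CpG-poor regions. The CpG-poor shares were the larger in both classes, 1.77% against 0.906% with a match and 27.2% against 12.9% without.

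CpG-poor probes did not always come from CpG-poor promoters. The windows matched by the 509 regions had a median of 6.00 CG per 100 bases (quartiles 4.67 and 7.67), against 2.81 in their probes and 7.67 in the windows of all 7178 promoter regions. Across those 7178 regions Spearman's rho between CG per base in the probes and in the window was 0.34, as a description over regions that share probes and design. Slc25a31 is an example: the 250 bases before its RefSeq start held 18 CGs, 7.20 per 100 bases, and 59.6% G+C, while the CpG-poor region held 3.27 CG per 100 bases. It is shown because the region was strongly bound on all 8 arrays, with CGs in capitals, on the plus strand of GRCm38.p6, and 1 probe of the region matched it from base 131.
Slc25a31 promoter (chr3:40708621-40708870): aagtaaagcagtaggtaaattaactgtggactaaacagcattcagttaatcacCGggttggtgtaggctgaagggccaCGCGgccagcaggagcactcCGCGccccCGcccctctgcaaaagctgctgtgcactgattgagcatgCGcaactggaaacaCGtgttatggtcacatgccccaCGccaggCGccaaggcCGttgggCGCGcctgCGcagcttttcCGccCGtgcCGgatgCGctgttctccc

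Promoter regions with strong binding on at least 4 arrays were few, 8 of 509, and are named here after their values were seen. Several belong to genes of the germ line, whose promoters are known to be methylated in somatic cells. Slc25a31, the ADP/ATP carrier of testis, had levels of 4.55, 3.54, 4.67 and 2.95 in aid-/-, wild-type, mbd4-/- and knockdown ES cells, 2.38 (aid-/-) and 3.60 (mbd4-/-) in liver and 2.43 and 3.77 in spleen. Tdrd12, which acts in the piRNA pathway, had levels of 2.79, 1.69, 2.98 and 1.86 in ES cells, 1.65 and 3.48 in liver and 1.94 and 3.02 in spleen. Brdt, the bromodomain protein of testis, had levels of 3.57, 2.52, 4.12 and 2.84 in ES cells, 1.05 and 3.80 in liver and 1.99 and 3.23 in spleen. Slc25a31 and Tdrd12 passed the strong-binding level on all 8 arrays, and Brdt on 7, all but aid-/- liver. The region named 2410076I21Rik in the array design matched the window of Rec114, a gene of meiotic recombination, and was strongly bound on all 8 arrays with levels from 1.81 in aid-/- liver to 4.05 in mbd4-/- ES cells. The others were 4933415F23Rik (window of Ppp1r14bl) on all 8 arrays, and D130017N08Rik, Pi16 (window of Gm46603) and Rtn2 (window of Gm51441) on 4 each.

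**Figure D3:**
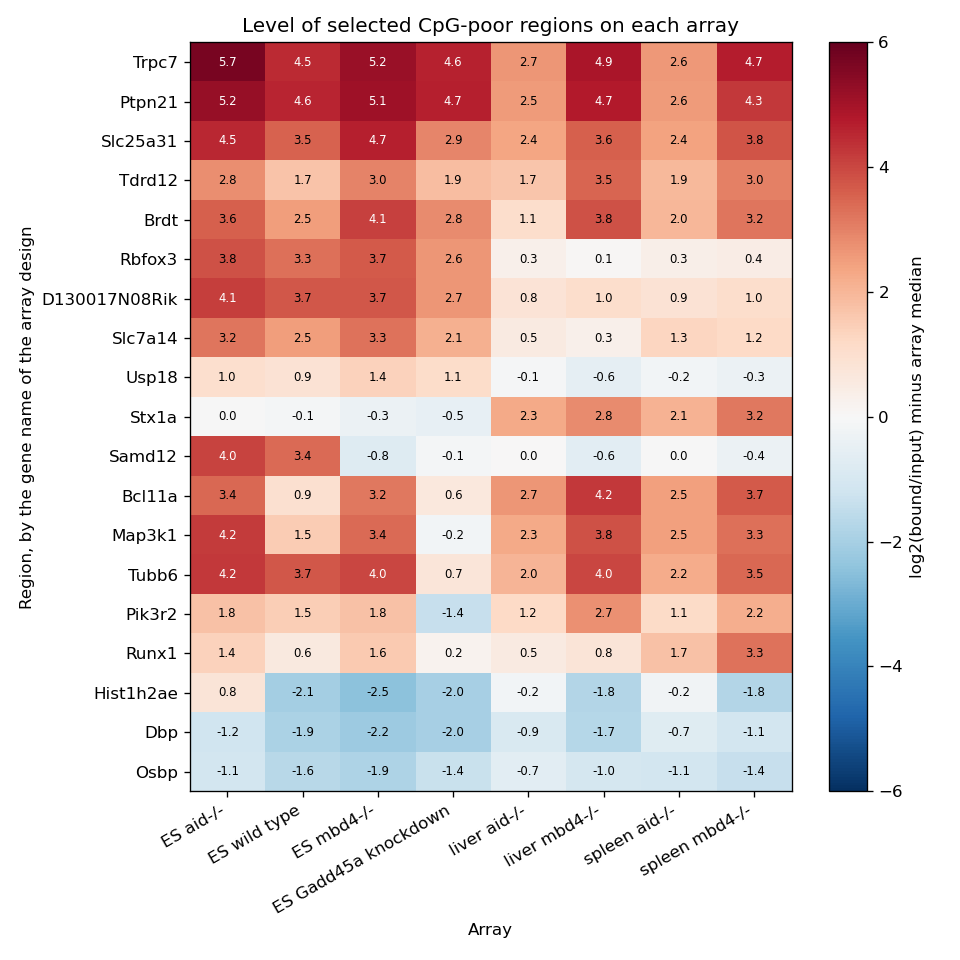
Level, as log2(bound/input) minus the array median, of selected CpG-poor regions (rows, by gene name in the array design) on the 8 arrays (columns), in colour with the value in each cell and no error, since each group is 1 array. Trpc7, Ptpn21 and Slc25a31 are high in all columns, Dbp and Osbp low in all, and Rbfox3 is high in the 4 ES columns only while Stx1a is high in the 4 tissue columns only.

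The gene lists that followed were drawn up with earlier results of these data known. CpG-poor were 4 of 41 regions of imprinted genes (9.76%) and 3 of 25 of germ-line and meiosis genes (12%), near the 10% by which the set is defined, and 0 of 19 of pluripotency genes. Of 200 regions at neuronal channels and receptors, 22 (11%) were CpG-poor. In this list 11 of the 22 were strongly bound in wild-type ES cells and 7 on all 8 arrays, among them Htr1d (a serotonin receptor), Grin2b (an NMDA receptor subunit), Kcnj12 (a potassium channel), Cacng2, Cacna1i and Cacna1h (calcium channel subunits). The shares among all CpG-poor regions were 17.6% and 10.9%, and those over all 200 regions of the list were not counted. Grin2b had levels of 4.12, 3.94, 4.73 and 3.20 in aid-/-, wild-type, mbd4-/- and knockdown ES cells, 2.36 (aid-/-) and 3.84 (mbd4-/-) in liver and 2.15 and 3.25 in spleen, while Kcna2, Kcnj8 and Drd2 were strongly bound on no array.

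The counts for other lists stand beside the 69.1% of all CpG-poor regions that were strongly bound on no array and the 10.9% on all 8. Of 238 regions at Hox and other homeobox genes 30 were CpG-poor, and 24 of these were strongly bound on no array and 0 on all 8. Of 30 CpG-poor regions at Zfp zinc finger genes 22 were strongly bound on no array and 2 (Zfp526 and Zfp710) on all 8. Of 14 at collagen and matrix genes 10 were strongly bound on none and 2 on all 8 (Col15a1 and Col6a2). The 4 regions at microRNA genes (Mir130a, Mir9-3, Mir23a and Mir615) were strongly bound on none. Of 3 regions at genes of the methylation machinery, Tet3, an oxidase of methylcytosine, was strongly bound on all 8 arrays, with a wild-type ES level of 3.20, and Dnmt3a and Gadd45b on none.

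Imprinted genes differed among themselves. Peg13, an imprinted non-coding RNA, was strongly bound on all 8 arrays, with levels of 4.85, 3.75, 5.83 and 5.51 in ES cells, 1.92 (aid-/-) and 4.06 (mbd4-/-) in liver and 2.05 and 3.62 in spleen. Mkrn3, paternally expressed, had levels of 0.97, -0.18, -0.19 and 0.53 in ES cells, 0.89 and 2.28 in liver and 1.71 and 1.84 in spleen. Its neighbour Magel2 had 0.02, 0.20, 0.59 and 0.15 in ES cells, 0.89 and 1.84 in liver and 1.43 and 1.35 in spleen. For Magel2 each tissue value lay above each ES value, and for Mkrn3 that held except in aid-/- liver, whose 0.89 lay below the 0.97 of aid-/- ES cells; neither difference passed the test of ES cells against tissues.

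ES cells and tissues were compared with limma, fitted over all 13444 regions with the 4 ES arrays against the 4 tissue arrays. The arrays of a side differ in genotype, so the spread includes genotype, and the p-values measure the spread between these samples. Of the CpG-poor regions, 5 were higher in ES cells and 1 was higher in tissues at a Benjamini-Hochberg adjusted p under 0.05; of all regions 0.0669% were called higher in ES cells and 0.149% lower. At an unadjusted p under 0.05, 165 CpG-poor regions were higher and 102 lower, against 781 and 1256 of all regions. The median difference over CpG-poor regions was 0.01, against -0.08 over all regions.

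Rbfox3, the neuronal splicing factor known as NeuN, differed most among those higher in ES cells. Its levels were 3.84, 3.31, 3.70 and 2.63 in aid-/-, wild-type, mbd4-/- and knockdown ES cells, 0.33 (aid-/-) and 0.07 (mbd4-/-) in liver and 0.35 and 0.43 in spleen. The 2 sets did not overlap, with means of 3.37 ± 0.54 (SD, n = 4) and 0.29 ± 0.16 (SD, n = 4) and a difference of 3.08 ± 0.28 (SE; limma, adjusted p = 0.0159). D130017N08Rik, with a single CG over 4 probes and a promoter match, had levels of 4.13, 3.74, 3.72 and 2.67 in ES cells, 0.81 and 1.05 in liver and 0.86 and 1.04 in spleen. The difference was 2.62 ± 0.31 (SE; limma, adjusted p = 0.0250), and again the sets did not overlap.

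The region at Slc7a14, of the family of amino acid transporters, had ES levels of 3.21, 2.50, 3.26 and 2.12 and tissue levels of 0.52 and 0.32 in liver and 1.27 and 1.17 in spleen. It was higher in ES cells by 1.95 ± 0.29 (SE; limma, adjusted p = 0.0457). Usp18, a protease that removes the ubiquitin-like ISG15, was higher by 1.38 ± 0.21 (SE; limma, adjusted p = 0.0495), from 1.03, 0.87, 1.38 and 1.12 in ES cells to -0.06 and -0.55 in liver and -0.17 and -0.35 in spleen. A region without a symbol on chromosome 12 (87555212 to 87555593, mm9, 4 probes) had ES levels of 3.00, 2.50, 3.69 and 3.79 and tissue levels from 0.44 to 1.27 (limma, adjusted p = 0.0457). Usp18 stayed under the strong-binding level in every sample, and 2 of its 3 probes were above background in the aid-/- ES, the knockdown and the 4 tissue samples.

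Stx1a, syntaxin of nerve terminals, was the region higher in tissues. Its levels were -0.02, -0.12, -0.33 and -0.48 in aid-/-, wild-type, mbd4-/- and knockdown ES cells, 2.26 (aid-/-) and 2.84 (mbd4-/-) in liver and 2.08 and 3.16 in spleen. The means were -0.24 ± 0.21 (SD, n = 4) and 2.58 ± 0.50 (SD, n = 4), lower in ES cells with a difference of -2.82 ± 0.28 (SE; limma, adjusted p = 0.0190). The homeobox gene Irx5 had a difference of 2.21 ± 0.57 (SE; limma, adjusted p = 0.149), with ES levels of 3.12, 2.16, 3.09 and, in the knockdown, 0.44, and did not pass the test.

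The number of calls varied with the fit and with single arrays. It was 0 without the aid-/- ES, wild-type ES, mbd4-/- ES, mbd4-/- liver or mbd4-/- spleen array, 2 without the aid-/- liver or aid-/- spleen array and 35 without the knockdown array, with the scan day as a block 36 (34 higher and 2 lower in ES cells), and with genotype as a covariate 313 (259 and 54). Among all regions these last 3 fits called 177 (1.32%), 153 (1.14%) and 1886 (14.0%). With the scan day as a block, the mbd4-/- ES and knockdown arrays, each alone on a day, carry no part of the contrast. Neither do the mbd4-/- tissue arrays, which shared their day with no ES array. That contrast thus rests on aid-/- and wild-type ES cells against the aid-/- tissues. With genotype as a covariate, the wild-type and knockdown arrays, each the only array of its genotype, carry no part of the contrast. These fits are thus not adjusted comparisons over all 8 arrays. The balance turned in some alternatives: at 1 plateau 19 CpG-poor regions were higher in ES cells and 45 lower, and with the deposited values 16 higher and 33 lower. Over all regions the main fit called 9 higher and 20 lower, and the counts under these alternatives are not given here. Whether this turn was particular to CpG-poor regions is therefore not stated. Over 15 alternatives the Rbfox3 and Stx1a calls passed in 9 each, with adjusted p-values of 0.000451 to 0.123 and of 0.000334 to 0.116, D130017N08Rik and Slc7a14 in 7 each (up to 0.136 and 0.201), Usp18 in 4 of 13 (up to 0.224) and the unnamed region in 3 of 14 (up to 0.201), with no change of direction.

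Liver and spleen were compared over the 2 genotypes. No CpG-poor region passed (limma, 0 called higher and 0 lower at an adjusted p under 0.05, as in 0% of all regions in either direction), and 27 had an unadjusted p under 0.05, against 170 of all regions. Regions at 2 blood regulators had their highest values in spleen. Sfpi1, which encodes the blood transcription factor PU.1, had 1.49 (aid-/-) and 3.19 (mbd4-/-) in spleen, 0.64 and 1.48 in liver and 1.31, 1.36, 1.42 and 0.37 in ES cells. Runx1, a regulator of blood stem cells, had 1.74 and 3.27 in spleen, 0.54 and 0.77 in liver and 1.37, 0.57, 1.55 and 0.21 in ES cells. Both were strongly bound on the spleen arrays and no other.

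Other regions had their highest value in mbd4-/- liver. Lyl1, a basic helix-loop-helix factor of blood cells, had 0.90 (aid-/-) and 2.64 (mbd4-/-) in liver, 0.33 and 0.06 in spleen and 1.51, 0.81, 1.56 and -0.23 in ES cells. Meis2, a homeobox gene with 1.76 CG per 100 bases, had 1.38 and 2.74 in liver, -0.02 and -0.89 in spleen and -0.33, -1.34, -1.81 and -1.04 in ES cells. For Meis2 the liver values lay above the 6 others and were the only strongly bound ones. The region at F2, the liver gene for prothrombin, was strongly bound on all 8 arrays, liver included, with 1.60 and 3.26 in liver and 1.97 and 3.28 in spleen.

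The genotypes aid-/- and mbd4-/- were compared over ES cells, liver and spleen. No CpG-poor region passed (limma, 0 called higher and 0 lower at an adjusted p under 0.05, as in 0% of all regions in either direction; smallest adjusted p 0.147), while 473 had an unadjusted p under 0.05, 274 higher and 199 lower in aid-/-. Leaving out either ES array, aid-/- or mbd4-/-, gave 419 calls, 151 higher and 268 lower. Of all regions 1179 were higher and 1203 lower at that unadjusted p, and 1876 (14.0%) were called without either ES array. Bringing the arrays to 1 plateau gave 21 calls, all higher in aid-/- (56 among all regions). The deposited values gave 23, all lower (54 among all regions). The direction of these calls thus differed between alternatives. The deposited values cover 693 of the 1348 regions, and the cause was not tested.

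The knockdown array stood apart from the rest. Over all regions its levels correlated with those of the other arrays at Pearson's r of 0.518 to 0.720, while the other pairs of arrays had 0.778 to 0.931. Over CpG-poor regions the values were 0.662 to 0.794 and 0.834 to 0.940. These are a description over regions that share probes and design.

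Each ES line was then set against the wild-type ES array, which the 3 comparisons share, and the tissues of the 2 genotypes against each other, with 1 array a side and hence no test. Listed regions are those whose levels were 1 log2 unit or more apart and in which 75% or more of the probes moved the same way. In aid-/- ES cells 258 CpG-poor regions were listed higher and 8 lower than in wild type, where 8.43% of all regions were higher and 2.32% lower. The median difference was 0.50, against 0.07 over all regions. In mbd4-/- ES cells 215 were listed higher and 50 lower (all regions, 8.52% and 2.72%), and in the knockdown 81 higher and 185 lower (all regions, 6.45% and 6.54%). In aid-/- liver, set against mbd4-/- liver, 78 were higher and 245 lower (all regions, 1.99% and 8.18%), and in spleen 28 higher and 151 lower (all regions, 0.714% and 5.86%).

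Most of these lists did not hold when the scale of the arrays and the G+C content of probes were taken into account. After a correction for probe G+C on each array and division by its plateau, the aid-/- ES list had 37 higher and 40 lower, mbd4-/- ES 52 and 18, the knockdown 172 and 129, liver 23 and 38 and spleen 26 and 19. Among all regions the counts were 327 and 159, 400 and 133, 1050 and 778, 156 and 174, and 188 and 298. The corrected aid-/- ES list therefore held 2.74% of CpG-poor regions higher against 2.43% of all, and 2.97% lower against 1.18%, while the knockdown list held 12.8% against 7.81% higher and 9.57% against 5.79% lower. Plateau scaling alone turned the tissue lists to 77 higher and 6 lower in liver and 84 and 2 in spleen (all regions, 272 and 94, and 288 and 157). Of the 245 regions listed lower in aid-/- liver, 229 were strongly bound there and 241 in mbd4-/- liver, while the plateaus of these arrays were 2.22 and 4.01. In aid-/- ES cells 47.9% of CpG-poor regions under 45% G+C were listed higher, as were 45.7% of other regions of that class, and the 13.2% between 50% and 55% stood against 8.65% of others. Whether scale or base composition accounts for these lists was not tested.

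**Figure D4:**
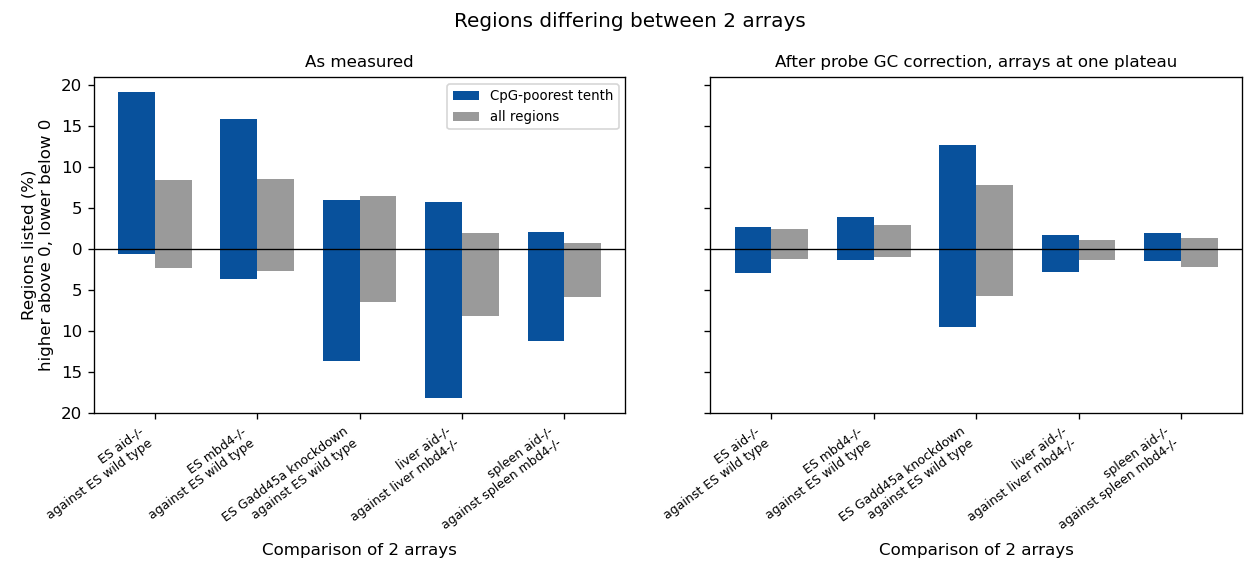
Share of regions listed higher (above 0) and lower (below 0) in 5 comparisons of 2 arrays (x axis), in % (y axis), for CpG-poor and all regions, as measured (left) and after probe G+C correction and plateau scaling (right), without error bars, since each side is 1 array. For CpG-poor regions the knockdown bars are the tallest on the right, with 172 regions listed higher and 129 lower, and the aid-/- ES bars, 258 higher on the left, stand at 37 higher and 40 lower.

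Some regions were listed in each of 6 alternative processings that gave them a value, the knockdown having the most, 74 of 185 lower and 10 of 81 higher. In aid-/- ES cells 5 of 258 and in mbd4-/- ES cells 11 of 215 higher regions did so, as did 2 of 50 lower in mbd4-/-, and in the tissues 1 of 78 higher and 3 of 245 lower in liver and none of the 179 listed in spleen. Brdt and the Fat1 region of 3 probes were among the 3 in liver. The same count was not made over all regions.

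Bcl11a, a zinc finger repressor of fetal globin genes, stood higher in both knockout lines. Its levels were 3.44 in aid-/-, 0.94 in wild-type, 3.16 in mbd4-/- and 0.63 in knockdown ES cells, 2.66 (aid-/-) and 4.25 (mbd4-/-) in liver and 2.48 and 3.69 in spleen, over 8 probes. The difference from wild type was 2.50 in aid-/- (1.18 to 2.50 over the 6 alternatives) and 2.22 in mbd4-/- (1.32 to 2.28), so that wild type and knockdown were the low pair among the 8. Map3k1, a stress-activated kinase with 1.16 CG per 100 bases, had the same low pair, with levels of 4.20, 1.52, 3.38 and -0.15 in ES cells, 2.27 and 3.81 in liver and 2.47 and 3.31 in spleen. Srrm2, a splicing scaffold, was lowest in wild type (0.53) and stood at 2.21, 2.39 and 2.62 in aid-/-, mbd4-/- and knockdown ES cells.

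In mbd4-/- ES cells, Tekt1 (a tektin of sperm flagella), Dcpp3, Nudt12 and Dscaml1 (a neuronal adhesion molecule) were listed higher, by 2.75, 2.45, 2.29 and 2.21, and were so in each alternative that gave them a value. Tekt1 had levels of 1.25 in aid-/-, 0.07 in wild-type, 2.82 in mbd4-/- and -0.36 in knockdown ES cells and of 0.16 to 0.77 in the tissues. It was strongly bound on the mbd4-/- ES array only.

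Samd12 was the region with the largest difference in mbd4-/- ES cells. Its levels were 4.05 in aid-/- and 3.42 in wild-type ES cells, but -0.75 in mbd4-/-, -0.10 in the knockdown, 0.02 (aid-/-) and -0.64 (mbd4-/-) in liver and -0.02 and -0.37 in spleen. The difference from wild type was -4.17 in mbd4-/- and -3.51 in the knockdown, and -2.76 and -2.72 where smallest among the alternatives. The region was thus strongly bound on 2 arrays, with no overlap between them and the other 6. The mbd4-/- and knockdown ES arrays were scanned on other days than wild type, so genotype and scan day cannot be told apart in these differences.

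Large single differences were also found in the knockdown. Tubb6, a beta tubulin, had levels of 4.25, 3.73 and 4.00 in aid-/-, wild-type and mbd4-/- ES cells but 0.71 in the knockdown, a difference of -3.02 from wild type, and was at 2.05 to 4.02 in the tissues. The clustered protocadherins Pcdhga11 and Pcdhga12, adhesion molecules of neurons, differed by -4.19 and -2.77, Pik3r2 (a regulatory subunit of phosphoinositide kinase) by -2.89, Plxnb2 (a semaphorin receptor) by -2.61 and Tet3 by -1.66. Among the 30 homeobox regions 11 were listed lower and 1 higher in the knockdown, the former including Emx2 (-2.90) and Irx5 (-1.72). Of all CpG-poor regions 13.7% were listed lower and 6.01% higher there, and of all regions 6.54% and 6.45%. Higher in the knockdown were Synj2 (2.36), Srrm2 (2.10), D130009I18Rik (2.03), Pabpn1 (1.90), Vaultrc5 (1.88) and Peg13 (1.76). All of these were listed in each alternative that gave them a value, and no second knockdown array was analysed here.

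The lists differed by promoter overlap, as they did in all regions. Of the 509 promoter regions 4.91% were listed higher in mbd4-/- ES cells, against 22.6% of the 839 others, and 6.88% against 17.9% were listed lower in the knockdown. Among all regions the same shares were 3.06% against 14.8% and 2.55% against 11.1%. In liver 1.38% against 28.4% and in spleen 0.982% against 17.4% were listed lower in aid-/- (all regions, 1.31% against 16.1% and 0.906% against 11.5%). In aid-/- ES cells 12.2% against 23.4% were listed higher (all regions, 3.59% against 14.0%). Other lists leaned the opposite way, with 6.68% of promoter regions against 1.91% of the rest lower in mbd4-/- ES cells, 7.07% against 5.01% higher in aid-/- liver and 2.75% against 1.67% higher in aid-/- spleen.

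Histone genes, which encode the proteins that package DNA, had low or undetected binding. Of 24 regions named for histone genes 16 were CpG-poor, with a median G+C content of 41.1%. Their median level was 0.19 in aid-/- ES cells against -1.30 in wild type, -1.86 in mbd4-/- and -1.59 in the knockdown, and -0.07 and -0.30 in aid-/- liver and spleen against -1.32 and -1.30 in mbd4-/-. None was strongly bound on any array, and of their 64 probes 3 (aid-/- ES) to 24 (mbd4-/- liver) were above background in the bound channel. After the probe G+C correction the medians were -0.36 in aid-/- and -0.69 in wild-type ES cells. Hist1h2ae, the probe printed above, had 0.79 in aid-/- and -2.06 in wild-type ES cells but no bound probe above background on either, so no fold is given. Histone genes are near-identical copies and a probe may also hybridise to other members of the family, so their values are uncertain.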

How the data were processed

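Per the file headers, the scanner files hold spot intensity values from Agilent Feature Extraction (10.7.3.1 for the mbd4-/- and knockdown ES arrays, 10.9.1.1 for the others), whose processed signals are background-subtracted and dye-normalised. The deposited log10 ratio served to check direction. A series-wide table deposited by the authors holds a score of unknown scale and log base. It was brought to the spread of the scanner values by a factor of 1.30 and served as an alternative only. How the authors computed it is not stated in the sources used. Dyes were not swapped.

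Levels were log2 of processed Cy5 over Cy3 minus the median of the array, averaged over probes, with outlier-flagged probes kept. Of 88737 probes 85850 lay on chromosomes 1 to 19. Comparisons with several arrays were fitted in limma 3.58.1 (R 4.3.3) over all 13444 regions, with Benjamini-Hochberg adjustment; comparisons of 1 array with 1 array used the listing rule given with the results. Tables were handled with Python 3.11.15, pandas 2.3.3, numpy 2.4.6, scipy 1.17.1 and statsmodels 0.14.6, and figures with matplotlib 3.10.9. The limma step was tested on simulated data.

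The tenth, gene lists and tests were chosen with earlier results of these data known. Promoter matches, G+C classes and tissue patterns were chosen after the values were seen. Genes named are, for each comparison, up to 8 per direction among those called, the 6 highest and 6 lowest by mean rank, the 4 most and 4 least variable in rank, and up to 4 per gene list. Symbols follow the newer scanner files. Exon and intron positions were not analysed here, and a few regions that the rule names are not reported here.

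Alternatives were a filter on dim input and outliers, normexp (offset 50, on median spot signals, since not all files hold means), 1 plateau for all arrays, a lowess correction for probe G+C, the deposited values, choice by observed over expected CG, joining at 1000 bp, scan day as a block, genotype as a covariate, no tissue term and leaving out each array.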

Additional observations from a re-analysis of the deposited data

How the results depend on the processing

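No median gap between CpG-poor and all regions changed sign under the alternatives run. The median difference between 2 arrays over CpG-poor regions did so in each comparison. With deposited values it went from 0.50 to -0.28 in aid-/- ES cells (all regions, 0.07 to -0.15) and from 0.17 to -0.04 in mbd4-/- ES cells (0.06 to -0.06). With G+C correction it went from -0.11 to 0.14 in the knockdown (0.11 to 0.14), 0.17 to -0.12 in liver (0.07 to 0.002) and 0.04 to -0.14 in spleen (-0.05 to -0.09). The balance of higher to lower listed regions turned for aid-/- ES cells (deposited values, G+C with plateau), the knockdown (G+C with plateau), liver (plateau) and spleen (plateau, G+C with plateau). That of called regions turned for ES cells against tissues (plateau, deposited values). Of the values recomputed, 173 stayed the same, 40 moved, 18 became stronger and 43 weaker. A count was the same within a fixed ratio of the main count, and stronger or weaker beyond it. A share was the same inside the exact binomial interval of the main share, which treats regions as independent. A median gap was the same within the SD of that gap over the ES or the tissue arrays. The strongly bound shares of CpG-poor regions moved with the background correction, the value table and the choice of regions. With normexp they were 17.2%, 14.6% and 17.6% in aid-/-, wild-type and mbd4-/- ES cells, 17.5% (aid-/-) and 18.2% (mbd4-/-) in liver and 20.6% in aid-/- spleen, with 7.20% strongly bound on all 8 arrays. With the deposited value table, which covers 693 of the regions, they were 26.3%, 26.4%, 31.2% and 20.8% in aid-/-, wild-type, mbd4-/- and knockdown ES cells, 29.7% and 30.3% in liver and 32.3% and 31.5% in spleen, with 13.0% on all 8 and 57.9% on none. Choosing the tenth by observed over expected CG gave 19.11% in aid-/- and 15.2% in wild-type ES cells and 8.92% on all 8. The same shares of all regions were 8.29%, 6.50% and 3.79%. For normexp and the deposited values the shares of all regions are not given here, so no excess over all regions is stated for them.

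The median of CpG-poor regions minus that of all regions moved with normexp to 0.33 in aid-/- ES cells, 0.14 in aid-/- liver and 0.18 in aid-/- spleen, and with arrays at 1 plateau to 0.40 and 0.50 in the latter pair. Probe G+C correction gave 0.63 (mbd4-/- ES), 0.42 (knockdown) and 0.30 (mbd4-/- liver), and with the plateau added 0.45 (knockdown), 0.25 (mbd4-/- liver) and 0.46 (aid-/- spleen). The deposited values gave 0.67, 0.78 and 0.47 in wild-type, mbd4-/- and knockdown ES cells, 0.67 (aid-/-) and 0.45 (mbd4-/-) in liver and 0.70 and 0.42 in spleen, and the choice by observed over expected CG 0.32 (knockdown) and 0.22 (mbd4-/- liver).

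The comparison of ES cells with tissues called 6 CpG-poor regions, 10 with the filter on dim input, 0 with normexp, 64 at 1 plateau (19 higher and 45 lower in ES cells), 49 with deposited values (16 and 33), 36 with the scan day as a block, 313 with genotype as a covariate (both resting on part of the ES arrays, as given above) and 0 to 35 when 1 array was left out. The comparison of aid-/- with mbd4-/- called 0, but 21 at 1 plateau (all higher in aid-/-) and 23 with deposited values (all lower). It called 0 to 419 when 1 array was left out. Without 1 of the 2 ES arrays the other is absorbed by the tissue term, so that only the 4 tissue arrays carry that contrast. Liver against spleen called 0 in each alternative run.

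Counts of listed regions, higher and lower, moved as follows. For aid-/- against wild-type ES cells they were 26 and 1 (normexp), 117 and 5 (plateau), 123 and 23 (G+C), 37 and 40 (G+C and plateau) and 11 and 84 (deposited), with 21 lower by observed over expected CG. Among all regions the counts, in the same order, were 226 and 6, 542 and 137, 804 and 264, 327 and 159, and 188 and 389, with 312 lower. For mbd4-/- they were 30 and 2 (normexp), 50 and 20 (plateau), 52 and 18 (G+C and plateau) and 18 and 17 (deposited), with 32 lower after G+C correction (all regions, 171 and 12, 417 and 150, 400 and 133, and 285 and 212, with 325 lower). For the knockdown the higher count was 19 (normexp), 131 (plateau), 123 (G+C), 172 (G+C and plateau) and 26 (deposited), against 149, 1182, 891, 1050 and 512 of all regions. For liver the higher count was 24 (filter), 1 (normexp), 8 (G+C), 23 (G+C and plateau), 25 (deposited) and 34 (observed over expected), and the lower count 6 (plateau), 38 (G+C and plateau) and 39 (deposited). Among all regions these were 114, 16, 66, 156, 205 and 267 higher, and 94, 174 and 170 lower. For spleen the higher count was 7 (filter), 0 (normexp), 84 (plateau), 4 (G+C), 12 (deposited) and 12 (observed over expected), and the lower count 2 (plateau), 19 (G+C and plateau) and 41 (deposited). Among all regions these were 25, 0, 288, 20, 123 and 96 higher, and 157, 298 and 191 lower. The cause of these changes was not tested. The alternative with G+C correction and plateau together was added after the data had been seen. No paired analysis was possible because each group is 1 array and the labels give no replicate numbers to use as a block; the tissue term and the scan-day block above are not replicate blocks.

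With 1 array per group, the spread between replicates of a group is unknown, and the number of arrays limits the precision. CpG-poor regions rest on few probes, and in aid-/- ES cells 63.3% of their bound-channel signals were well above background, so low levels there are bounds rather than measurements.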

Other observations

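A few patterns rested on both tissues and are given as values, chosen after they were seen. Strong binding on all 4 tissue arrays and no ES array was found at 14 CpG-poor regions (1.04%, against 0.722% of all regions), 1 of them with a promoter match. Besides Stx1a they included Shank3, a scaffold of excitatory synapses, Ror2, a Wnt receptor, and Slc26a1, an anion transporter. Shank3 had levels of 1.62, 0.92, 1.70 and -0.69 in aid-/-, wild-type, mbd4-/- and knockdown ES cells, 1.30 (aid-/-) and 2.43 (mbd4-/-) in liver and 1.94 and 4.02 in spleen. Its aid-/- liver value lay below 2 of the ES values, although it passed the lower strong-binding level of that array.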
